A study of Mus musculus with 9 samples.

Results

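The locus of Irx3 and Irx5 was described as a stretch of 1.2 Mb on mouse chromosome 8, from 93800000 to 95000000 in build mm9, in which peaks of 5 deposited lists were collected by their start. It contained 121 of the 243649 peaks. Of these, 18 belonged to Hoxa13 at embryonic day 11.0 (E11.0), 66 to Hoxa13 at E11.5, 26 to Hoxa13 at E12.5, 6 to replicate 1 of Hoxa11 at E11.5 and 5 to replicate 2. Each list came from chromatin immunoprecipitation and sequencing (ChIP-seq) with a home-made antibody against Hoxa13 or Hoxa11, in wild-type embryos of the ICR strain. For E11.0 the dissected tissue was the autopod, the future hand and foot, for E11.5 whole limb buds, and for E12.5 limb buds. The precipitations of E11.0 used pooled pairs of autopods, and those of E11.5 the limb buds of a litter. There was 1 library for each Hoxa13 stage and 2 for Hoxa11, and the 4 input libraries were not analysed here. The E12.5 library followed another, earlier published procedure, so stage, tissue and procedure cannot be told apart.

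Irx3 and Irx5 encode homeodomain transcription factors of the Iroquois family and lie beside each other, with Irx6, in the IrxB cluster. In the mouse limb they are known for an early role in proximal and anterior skeletal elements. Fto, next to Irx3, encodes an RNA demethylase, and its introns are known to hold distant regulatory sequence of Irx3. The mouse deletion Fused toes removes this whole region and joins digits. Hoxa11 is known for its role in the forearm and lower leg and Hoxa13 for its role in the hand and foot, so the proteins are mostly made in different parts of the limb. The order of protein-coding genes in RefSeq (GRCm38.p6) is Rpgrip1l, Fto, Irx3, Irx5, Irx6 and Mmp2.

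The Irx3 position was taken as 94.32 Mb and the Irx5 position as 94.88 Mb, both rounded to 10 kb. No gene annotation of mm9 was used, so no peak was placed inside an exon, an intron or a promoter, and the ends of Fto are not given. Peaks before the Irx3 position lie on the side of Fto and Rpgrip1l. The depth of sequencing is unknown, so a missing peak means that none was called, not that the protein was absent. A peak in bulk tissue also does not tell few cells with strong binding apart from many cells with weak binding. Peak lists hold no expression, so the tissue was not checked against marker genes.

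**Figure D1:**
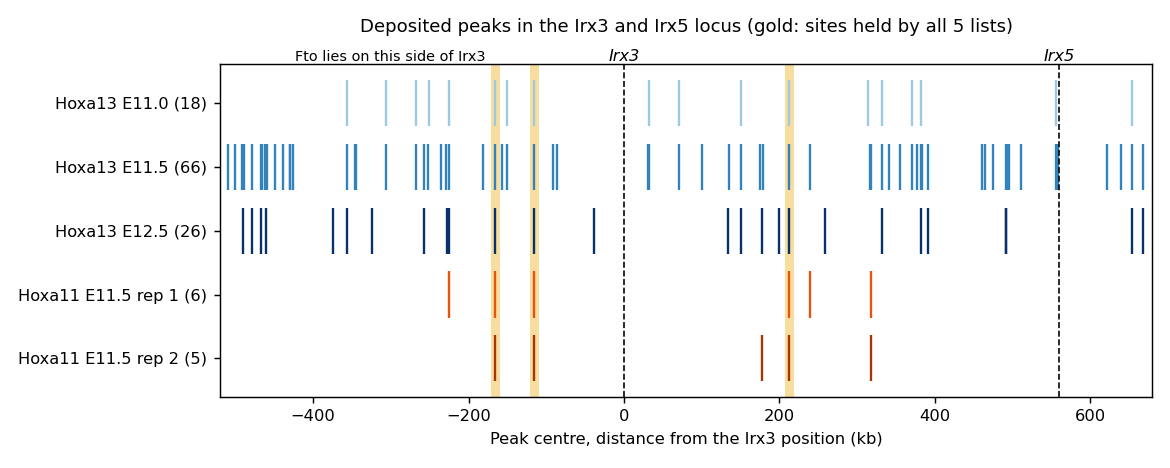
Peaks of the 5 lists along the locus, as vertical ticks at each peak centre in kb from the Irx3 position, with the number of peaks per list in parentheses. Gold bands mark the 3 sites held by all 5 lists, at -165.7, -116.2 and 212.5 kb, and dashed lines mark the Irx3 and Irx5 positions.

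Hoxa11 peaks were dense in the locus, while Hoxa13 peaks were about as frequent as elsewhere. Replicate 1 of Hoxa11 had 5 peaks per Mb in the locus, against 1.12 per Mb over all placed chromosomes, a ratio of 4.48. Replicate 2 had 4.17 peaks per Mb in the locus, against 0.617 over all placed chromosomes, a ratio of 6.75. Both Hoxa11 libraries thus had several times their mean density here. Hoxa13 had 15 peaks per Mb in the locus at E11.0, against 19.3 over all placed chromosomes (ratio 0.776). At E11.5 the values were 55 per Mb in the locus and 55.4 over all placed chromosomes (ratio 0.994). At E12.5 they were 21.7 per Mb in the locus and 17 over all placed chromosomes (ratio 1.27).

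The genome was also divided into 2128 windows of the length of the locus. At least 6 replicate 1 peaks were found in 68 of them (3.2%), and at least 5 replicate 2 peaks in 50 (2.35%), with medians of 1 and 0 peaks. For Hoxa13 the locus was ordinary: 57.4% of windows held at least 18 peaks at E11.0, 47.1% at least 66 at E11.5 and 29% at least 26 at E12.5. The neighbouring 1.2 Mb before the locus held 4 and 2 Hoxa11 peaks in replicates 1 and 2, also above the window medians of 1 and 0. The 1.2 Mb after it held 2 and 0. The last Hoxa11 peaks before the locus began at 93478701 in replicate 1 and 93709663 in replicate 2. After the locus, the next began at 95192860 in replicate 1 and at 99562722, several Mb away, in replicate 2. These values describe the locus, which was chosen with results of these data known, and no test was made of them.

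**Figure D2:**
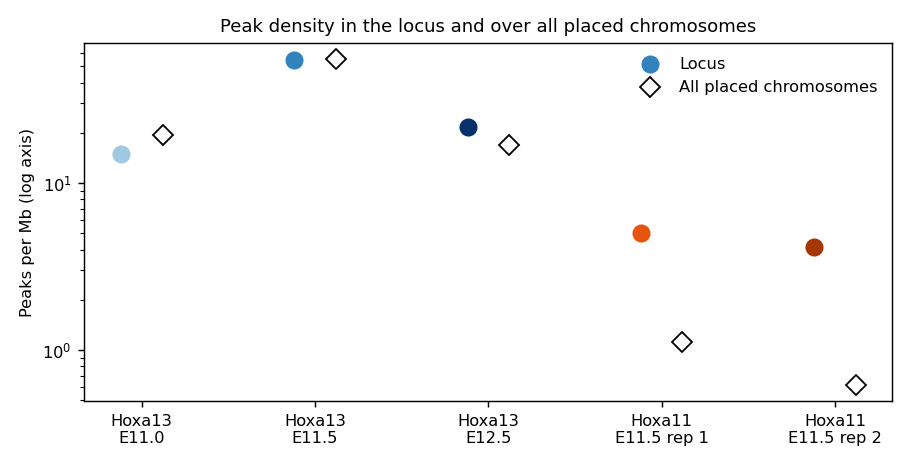
Peaks per Mb, on a log axis, in the locus (circles) and over all placed chromosomes (diamonds) for each list. Both Hoxa11 lists lie above their diamonds (5 and 4.17 in the locus, against 1.12 and 0.617), and the Hoxa13 lists lie close to theirs.

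The 11 Hoxa11 peaks formed 7 sites when peaks sharing at least 1 bp were merged. These spanned 544 kb in the middle of the locus, from 94094988 to 94638652 where the Hoxa13 peaks merged with them are included. Of the 7 sites, 3 lay before the Irx3 position and 4 after it. By the centre of the site, the closest to the Irx3 position was 116.2 kb away and the closest to the Irx5 position 241.6 kb away. Hoxa11 was thus called on both sides of Irx3 and at a distance from either gene. Both replicates held 4 of the 7 sites (57.1%, exact Clopper-Pearson 95% interval 18.4 to 90.1), against 29.2% of 3503 Hoxa11 sites in the whole lists. Replicate 1 alone held 2 sites and replicate 2 alone held 1. The labels do not say whether the replicates came from separate litters, so their spread may be technical.

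Each of the 7 Hoxa11 sites overlapped Hoxa13 of E11.5, its own stage. That is 100% of sites (95% interval 59 to 100), against 68.5% over the whole lists. Under 50% reciprocal overlap it was 71.4%, for which no whole-list value was computed. At the sites of 94497823 to 94498715 and 94638106 to 94638652, the summit of replicate 2 lay outside the E11.5 Hoxa13 peak. At E12.5 the number was 5 of 7 (71.4%, 29 to 96.3), against 47.5% over the whole lists, and at E11.0 it was 4 of 7 (57.1%, 18.4 to 90.1), against 25.1%. The same 4 sites met Hoxa13 at all 3 stages (57.1%), against 19.5% of Hoxa11 sites in the whole lists. By an overlap of at least 1 bp, no Hoxa11 site of the locus lacked Hoxa13, while 26.2% of all Hoxa11 sites did. For no Hoxa13 partner the interval was 0 to 41%, and each of the whole-list values in this paragraph lay within the interval at 7 sites. With every Hoxa13 list at the length of the shortest, 71.4% of the 7 sites met E11.5 when the widest peaks were kept (29 to 96.3), against 54.8% over the whole lists, and 14.3% in a single random draw (0.361 to 57.9), against 22.3%. By its title, a single input library served Hoxa11 replicate 1 and the E11.5 Hoxa13 library, and the part of that input in the overlap was not tested.

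The 4 sites of both replicates gave like values. All 4 met Hoxa13 of E11.5 (95% interval 39.8 to 100), against 79.2% of the 1023 replicated sites in the whole lists. At E11.0, 3 of 4 did (75%, 19.4 to 99.4), against 30.6%, and at E12.5 it was 3 of 4 (75%, 19.4 to 99.4), against 64.7%. These were the same 3 sites, so 75% met every stage (19.4 to 99.4), against 27.1%. By an overlap of at least 1 bp, none lacked Hoxa13 (0 to 60.2), against 16.1%. Each whole-list value of the replicated sites lay within its interval.

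A set of 3 sites was held by all 5 lists, from both proteins and every stage. They lay on chromosome 8 from 94154004 to 94154612, from 94203459 to 94204073 and from 94532234 to 94532843, at -165.7, -116.2 and 212.5 kb from the Irx3 position. The pair on the Fto side was 49.5 kb apart, and the site between Irx3 and Irx5 followed 328.7 kb later. Of the 73 merged sites of the locus, 4.11% were held by all 5 lists, against 0.153% of the 174712 merged sites of the placed chromosomes. Only 10 of 2128 windows of the same length (0.47%) held 3 or more such sites, the locus included. A site of all 5 lists needs both Hoxa11 replicates, so these values are not separate from the Hoxa11 density of the locus.

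At the site of 94203459 to 94204073, the peak was 315 bp wide for Hoxa13 at E11.0, 615 bp at E11.5 and 370 bp at E12.5. For Hoxa11 it was 391 bp wide in replicate 1 and 530 bp in replicate 2. These widths stood at percentiles 76.8, 97.3, 96.9, 77.2 and 87.2 of their own lists, so the Hoxa13 peak was among the widest at the later stages. The deposited replicate 2 list gave it a fold enrichment of 6.19 over the caller's background, percentile 90.6 of that list, and a −log10 q of 21.4. Both were the highest values among the 5 replicate 2 peaks of the locus, and the median fold enrichment of the whole list was 3.9. Fold enrichment and −log10 q are the authors' values per peak and rank peaks within that list only.

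At the site of 94532234 to 94532843, the Hoxa13 peak was 432 bp wide at E11.0, 610 bp at E11.5 and 239 bp at E12.5. The Hoxa11 peak was 433 bp wide in replicate 1 and 336 bp in replicate 2, with a deposited fold enrichment of 5.26 (percentile 83.4) and a −log10 q of 18.7. Its E11.0 peak was at percentile 94.2 of that list, the highest of the 3 sites at that stage. At E12.5 its width was at percentile 84.9, the lowest of the 3 sites at that stage.

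At the site of 94154004 to 94154612, the Hoxa13 peak was 288 bp wide at E11.0, 609 bp at E11.5 and 315 bp at E12.5. The Hoxa11 peak was 279 bp wide in replicate 1 and 362 bp in replicate 2, with a deposited fold enrichment of 4.31 (percentile 65.9) and a −log10 q of 8.4. Its replicate 1 width was at percentile 48.8, near the middle of that list. Of the 3 sites it had the lowest deposited fold enrichment and the narrowest replicate 1 peak.

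The peaks of the proteins lay over each other at these 3 sites. The centres of the 12 peaks from the other 4 lists lay between 2 and 90 bp from the summit that the deposited replicate 2 list gives. In the whole replicate 2 list, the centre of an overlapping peak was within 100 bp of the summit for 58.4% of 503 pairs with Hoxa13 at E11.0, 62.6% of 1166 at E11.5 and 69.8% of 918 at E12.5. With Hoxa11 replicate 1 it was 70.9% of 1064 pairs.

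The other 4 Hoxa11 sites were held by fewer lists. The site of 94094988 to 94095449, at -224.8 kb from the Irx3 position, met Hoxa13 at all stages and Hoxa11 in replicate 1 alone. Its E12.5 Hoxa13 peak of 401 bp was the widest of the locus at that stage (percentile 97.7), and its replicate 1 peak was 406 bp wide (percentile 79). The site of 94497823 to 94498715, 178.3 kb after the Irx3 position, held replicate 2 (3.08-fold) with Hoxa13 at E11.5 and E12.5. Its E11.5 peak of 747 bp was the widest of the locus in any list (percentile 99). There the centre of the E11.5 peak lay 428 bp from the Hoxa11 summit and that of the E12.5 peak 227 bp. The centre of the replicate 2 peak itself lay 94 bp from it. The Hoxa13 lists give no summit, so their centres are the middles of intervals, and where Hoxa13 signal was highest is unknown.

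The site of 94638106 to 94638652 was held by both Hoxa11 replicates and by Hoxa13 at E11.5 only among the stages. Its E11.5 Hoxa13 peak of 303 bp was centred 226 bp before the Hoxa11 summit, while the replicate 1 centre lay 36 bp after it. The deposited fold enrichment there was 2.78, percentile 10.4 of replicate 2. At the site of 94559429 to 94559697, replicate 1 had a peak of 199 bp, at percentile 2.1 of its list and the narrowest Hoxa11 peak of the locus, together with a Hoxa13 peak at E11.5 of 269 bp. Both of these sites lay between Irx3 and Irx5.

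**Figure D3:**
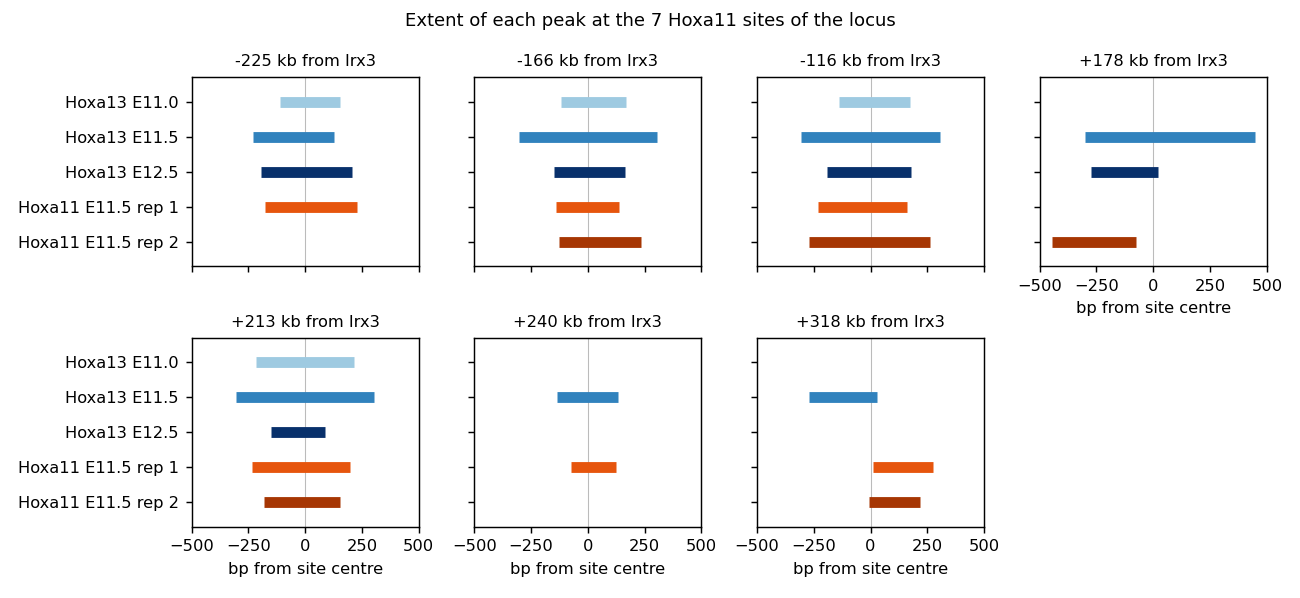
Extent of each peak, in bp from the centre of the merged site, at the 7 Hoxa11 sites of the locus, 1 panel per site with its distance from the Irx3 position and 1 bar per peak. At the sites -165.7, -116.2 and 212.5 kb from Irx3 all 5 lists have a bar around the centre, whereas at 178.3 and 318.4 kb the Hoxa13 and Hoxa11 bars are offset from each other.

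Hoxa13 occupancy was then compared between stages. Of the 18 E11.0 peaks, 17 met an E11.5 peak (94.4%, 72.7 to 99.9), against 58.1% of the whole E11.0 list. With E12.5, 9 of 18 overlapped (50%, 26 to 74), against 30.7% of the list. Of the 26 E12.5 peaks, 20 met E11.5 (76.9%, 56.4 to 91), against 70.7% of the list, and 9 met E11.0 (34.6%, 17.2 to 55.7), against 35.6%. Among 66 peaks called at E11.5, 17 overlapped E11.0 (25.8%, 15.8 to 38), against 20.5% of the list, and 20 met E12.5 (30.3%, 19.6 to 42.9), against 21.7%. The E11.0 share meeting E11.5 was the only one of the 6 whose interval did not cover the value of the whole list. These intervals reflect the number of peaks counted, with no measure of how embryos vary, and the E11.5 list is the longest. Every Hoxa13 list was also cut to the length of the shortest. With the widest peaks kept, 14 of 17 E11.0 peaks met E11.5 (82.4%, 56.6 to 96.2), against 36.1% of the whole shortened list. In a single random draw it was 5 of 12 (41.7%, 15.2 to 72.3), against 18.1%, a value within the interval.

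**Figure D4:**
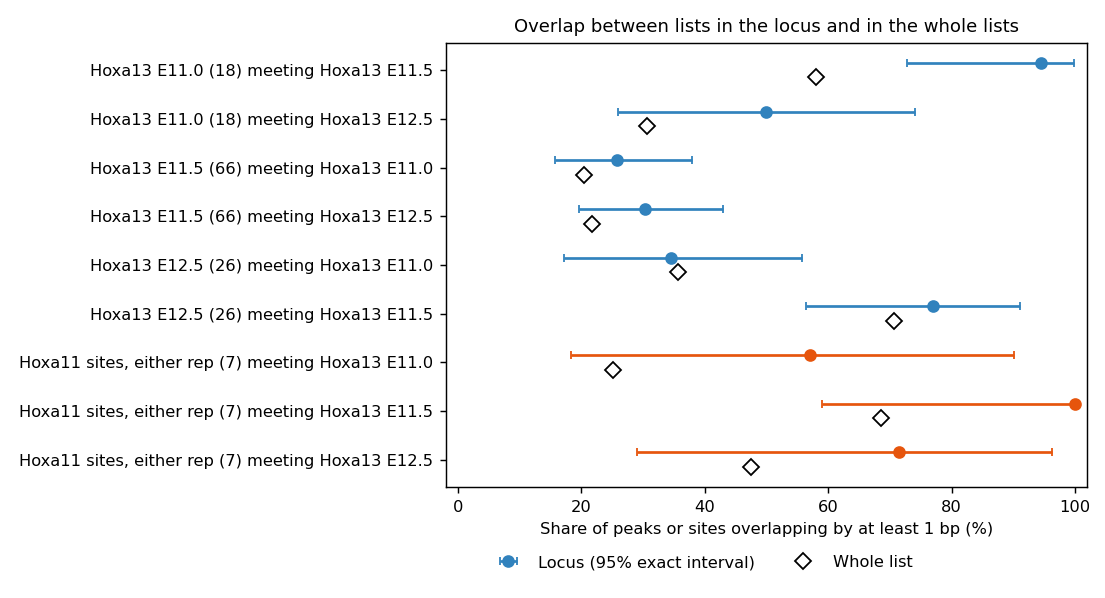
Share of peaks or sites that overlap a Hoxa13 list by at least 1 bp, in the locus (circles with 95% exact intervals, number of peaks in parentheses) and in the whole list (diamonds). The E11.0 peaks meeting E11.5 (94.4% in the locus, 58.1% in the list) lie farthest to the right of their diamond among the Hoxa13 pairs.

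Hoxa13 peaks of all 3 stages numbered 9. They made up 50% of E11.0 peaks of the locus (26 to 74) against 26.8% of that list. The share was 13.6% of E11.5 peaks (6.43 to 24.3) against 9.6%, and 34.6% of E12.5 peaks (17.2 to 55.7) against 30.8%. Each interval covered the value of its whole list. By their E11.5 intervals, the 9 peaks lay from 93963322 to 93963755, 94094988 to 94095345, 94154004 to 94154612, 94203459 to 94204073, 94470744 to 94471193, 94532234 to 94532843, 94651638 to 94652262, 94702414 to 94702815 and 94973680 to 94974145. They were spread over the locus, with 4 before the Irx3 position, 4 between the genes and 1 after the Irx5 position. The site at 94651638 was the widest of them at E11.5, with 625 bp (percentile 97.5), and among the widest at E12.5, with 334 bp (percentile 95.3), yet no Hoxa11 peak met it.

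Over all 66 E11.5 peaks, 7 met a Hoxa11 peak of either replicate (10.6%, 4.37 to 20.6), against 1.67% of the list. Hoxa11 peaks were dense here (ratios 4.48 and 6.75) and E11.5 Hoxa13 peaks were not (0.994). This share and those below are thus not results separate from the Hoxa11 density, and the part of that density in them was not tested. Of the 9 peaks found at all stages, 4 met a Hoxa11 peak of either replicate (44.4%, 13.7 to 78.8), against 5.27% of the 13767 such peaks in the whole E11.5 list. Among those that recurred at E12.5 only, 1 of 11 met Hoxa11 (9.09%, 0.23 to 41.3), against 4.88% of the list. Among those that recurred at E11.0 only it was 0 of 8, which leaves an upper limit of 36.9%, against 0.649% of the list. Of the 38 peaks called at E11.5 alone, 2 met Hoxa11 (5.26%, 0.644 to 17.7), against 0.754%. In the locus, 4 of the 7 Hoxa11 sites thus fell on Hoxa13 sites that were called at every stage, which were also the widest class of E11.5 peaks.

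Of the other E11.5 peaks, 11 recurred at E12.5 only (16.7%, against 12.1% of the list), 8 recurred at E11.0 only (12.1%, against 11%) and 38 stood at E11.5 alone (57.6%, against 67.4%). Their median widths were 351, 374 and 270 bp, against 466 bp for peaks of all 3 stages. Peaks called at E11.5 alone were therefore the narrowest class. Wider intervals meet another peak more easily, and the part of width in these shares was not tested. At E12.5, 6 peaks met no other stage (23.1%, against 24.5% of the list). Their gap to the nearest Hoxa13 peak of another stage was between 148 bp, for the peak of 94811502 to 94811686, and 47033 bp, for that of 94281362 to 94281471. The peak at 94281362 was 110 bp wide, the narrowest of the locus. At E11.0 a single peak, from 94634025 to 94634311, met no other stage (5.56%, against 37.9% of the list). An E11.5 peak followed 2823 bp after it.

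Some Hoxa13 sites were absent from the E12.5 list despite wide peaks before. The interval of 94168902 to 94169516 was 615 bp wide at E11.5 (percentile 97.3), and its E11.0 peak of 450 bp was the widest of the locus at that stage (percentile 95.2). No E12.5 peak and no Hoxa11 peak met it. The E11.0 peak of 94390070 to 94390411 (342 bp, percentile 83.3) met E11.5 but not E12.5. In contrast, the E11.5 peak of 93810285 to 93810925, 641 bp wide (percentile 97.8), met no other list. Wide peaks thus occurred both at recurring sites and at a site of a single list.

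Between the genes, the Hoxa13 density was close to that before Irx3 at E11.0 and lower at E11.5 and E12.5. In order of stage, the 520 kb before the Irx3 position held 8, 33 and 13 peaks, or 15.4, 63.5 and 25 per Mb. The 560 kb between the Irx3 and Irx5 positions held 9, 29 and 11, or 16.1, 51.8 and 19.6 per Mb. The last 120 kb after the Irx5 position held 1, 4 and 2, or 8.33, 33.3 and 16.7 per Mb. The first 100 kb of the locus held 16 of the 33 peaks before the Irx3 position at E11.5 and 4 of the 13 at E12.5. Without that 100 kb, the E11.5 density before Irx3 was below that between the genes, while the E12.5 density was still above it. Hoxa11 had 3 and 2 peaks before the Irx3 position and 3 and 3 between the genes in replicates 1 and 2, with none after the Irx5 position.

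The stages differed most in the first 100 kb of the locus, an interval singled out after its counts were seen. From 93.8 to 93.9 Mb the Hoxa13 lists held 0, 16 and 4 peaks in order of stage, and neither Hoxa11 replicate held any. The other bins of 100 kb held 2 to 7 peaks at E11.5. Over all placed chromosomes the mean was 5.54 E11.5 peaks per 100 kb, and 425 of 25779 bins (1.65%) held 16 or more. All 4 E12.5 peaks met E11.5 peaks there, against 70.7% of the whole E12.5 list, in a bin dense in E11.5 peaks. The first E11.0 peak of the locus began at 93963470, at a site found at all stages.

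**Figure D5:**
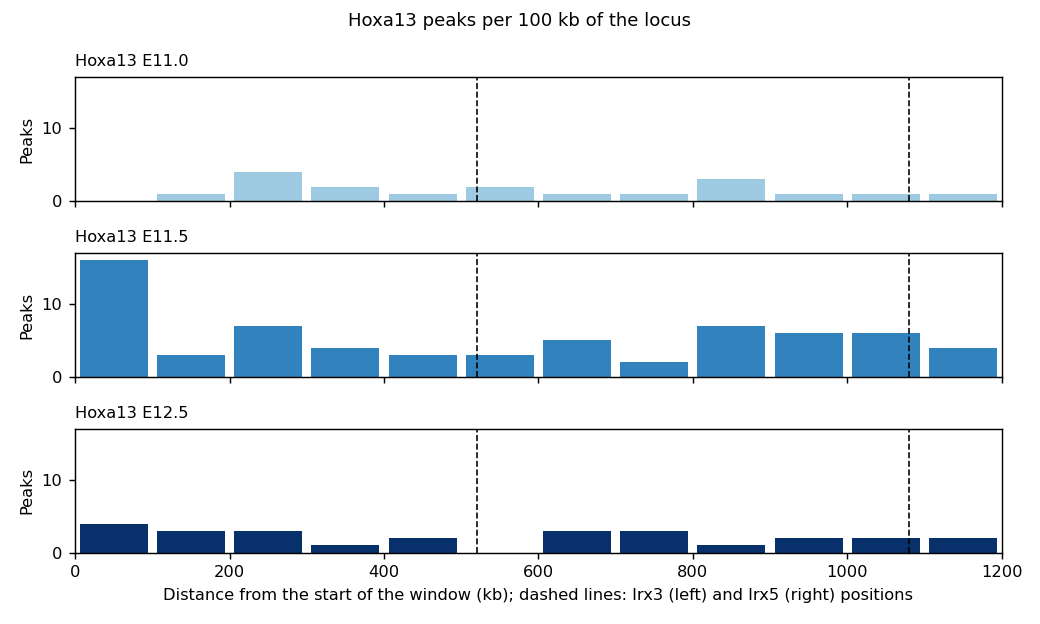
Number of Hoxa13 peaks in each 100 kb of the locus by stage, E11.0 at the top, by distance from the start of the window, with dashed lines at the Irx3 and Irx5 positions. The first bin holds 0, 16 and 4 peaks at the 3 stages, and the bin with the Irx3 position holds 2, 3 and 0.

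Around Irx3 no peak was called close by. The nearest Hoxa13 peak lay 31.5 kb after the position at E11.0 (94351538 to 94351741), 30.9 kb after it at E11.5 (94350928 to 94351248) and 38.5 kb before it at E12.5 (94281362 to 94281471). By peak edge, Hoxa11 was nearest at 116.1 kb in replicate 1 and 116 kb in replicate 2, both at the site of 94203459 to 94204073. Taking the lists jointly, the widest gap without a peak was 69.5 kb, from 94281472 to 94350927, and the Irx3 position lay in it. The next gap was nearly as wide, 69.4 kb from 94711019 to 94780405, and held neither gene, and the one after it, of 62.7 kb, held the Irx5 position. Between peaks of the 5 lists the median gap was 10.6 kb. Gaps were measured between peaks of the locus, so stretches that run past its bounds were not counted. In the E11.5 list alone the widest such gap, 116.6 kb, also held Irx3, as did that at E12.5 (173 kb). Those in both Hoxa11 lists (328.4 and 293.8 kb) did too, but longer stretches ran past the bounds. After 94638652 replicate 1 had no peak until 95192860. Replicate 2 had none from 94638597 until 99562722, and both stretches held the Irx5 position. At E11.0 the gap at Irx3 was the next widest, with 147.6 kb, but no peak was called between 93725654 and 93963470, a longer stretch.

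The Irx3 promoter is shown because the Irx3 position lies in this gap. It runs from 250 bases before to 50 after the start of the gene on the minus strand of chromosome 8 and is RefSeq sequence of GRCm38.p6, with 56% G and C:
Irx3 promoter: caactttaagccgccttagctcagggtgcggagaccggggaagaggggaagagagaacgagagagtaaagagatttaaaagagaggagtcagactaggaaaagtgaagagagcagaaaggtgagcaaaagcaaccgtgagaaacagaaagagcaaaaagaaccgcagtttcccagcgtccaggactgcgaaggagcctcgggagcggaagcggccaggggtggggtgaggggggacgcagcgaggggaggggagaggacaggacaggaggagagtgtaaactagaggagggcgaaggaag
Neither CAATAAA nor CGTAAA, letters known to be bound by posterior HOX proteins, was found in it or in the Fto promoter on either strand, so no base is in capitals. Of 32851 promoters of 300 bases in the table, 4.6% held CAATAAA and 3.03% held CGTAAA. The absence of these letters says nothing of binding elsewhere. Of the 3 genes, Fto and Irx3 were matched to a promoter.

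Irx5 had Hoxa13 peaks near its position at the early stages. At E11.0 the nearest ended 4 kb before it (94875701 to 94876013). At E11.5 there was an overlapping peak from 94875467 to 94876033, 567 bp wide, and a second of 208 bp that ended 1.2 kb before the position (94878626 to 94878833). These distances are within the rounding of the Irx5 position, so the peaks were not placed at its promoter. At E12.5 the nearest peak was 68 kb away (94811899 to 94812033), and the gap around Irx5 was 161.8 kb. By peak edge, the nearest Hoxa11 peak was 241.3 kb away in replicate 1 and 241.4 kb in replicate 2. Within 50 kb of the Irx5 position the Hoxa13 lists thus held 1, 3 and 0 peaks in order of stage, and within 50 kb of the Irx3 position 1, 2 and 1.

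At the bounds of the locus, the last E11.5 peak outside began at 93775905 before it, and the first inside at 93810285. At the other end the last inside began at 94987678 and the first outside at 95000915.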

How the data were processed

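ChIP-seq peak lists of Hoxa13 at E11.0, E11.5 and E12.5 (1 library each) and Hoxa11 at E11.5 (replicates 1 and 2) were analysed. The submitters' processing notes name Bowtie2 2.2.2, MACS2 2.1.0, CASAVA 1.4 and build mm9, without a threshold or a use of input. The 3 Hoxa13 lists and Hoxa11 replicate 1 hold positions only. Replicate 2, as deposited, adds a score, fold enrichment (a ratio), −log10 p-value, −log10 q-value and summit, and in 100% of peaks its score is 10 times the −log10 q, cut to an integer.

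Peaks were assigned to the locus by start, and positions are printed 1-based in mm9. Overlap meant at least 1 bp. Densities used the span of the 21 placed chromosomes that holds peaks, 2580.9 Mb. Shares carry exact Clopper-Pearson 95% intervals, which cover counting error only. The overlap code was tested on simulated data. Python 3.11.15, numpy 2.4.6, scipy 1.17.1 and matplotlib 3.10.9 were used. The members, the lists of sites and the comparisons were chosen with earlier results of these data known, so no chance test was made. Text names every Hoxa11 peak, the E11.5 peaks found at all stages, the widest Hoxa13 peaks and those nearest to Irx3 and Irx5. Alternatives were the overlap rule, list length, narrow peaks, replicates and window bounds. No genome of mm9 was used, so peak sequences were not read.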

Additional observations from a re-analysis of the deposited data

How the results depend on the processing

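Across 30 results and 109 alternatives, 90 values stayed within 1.5 times the count, or within the 95% interval of the share. The E11.5 density relative to the list mean, 0.994, was on the other side of 1 without the narrowest peaks (1.1), with the widest peaks (1.3) and in the random draw (1.01). With the widest 44699 peaks of each Hoxa13 list, the length of the shortest, the E11.5 count in the locus was 27 in place of 66. The share of E11.5 peaks meeting E11.0 was then 51.9%, against 35.7% of the whole shortened list. Meeting E12.5 it was 55.6%, against 42%, and found at all 3 stages 33.3%. Under 50% reciprocal overlap, E11.5 peaks meeting E12.5 were 15.2%, E11.5 peaks of all stages 4.55% and E12.5 peaks meeting E11.5 38.5%. Hoxa11 sites meeting E11.5 were then 71.4%. A single random draw of 44699 peaks kept 21 E11.5 peaks. It kept 12 of 18 E11.0 peaks (15.8 expected) and none of the 4 at Hoxa11 sites. In that draw E11.0 peaks met E11.5 in 41.7%, against 18.1% of the whole shortened list, and both stages in 16.7%. E12.5 peaks met E11.0 in 15.4%, against 31.3%, E11.5 in 19.2%, against 22%, and both in 7.69%. Hoxa11 sites met E11.0 in 0%, against 22.2% of all Hoxa11 sites, and E11.5 in 14.3%, against 22.3%, and 0 sites were held by all lists. Whole-list shares were not computed under 50% reciprocal overlap or, at equal length, for peaks of all 3 stages. The peaks near Irx3 numbered 0 within 25 kb, 4 within 50 kb and 9 within 100 kb. Those near Irx5 numbered 4 within 50 kb and 17 within 100 kb. Without either Hoxa11 replicate, the share of Hoxa11 sites meeting Hoxa13 ranged from 60 to 66.7% at E11.0, was 100% at E11.5 and ranged from 66.7 to 80% at E12.5, and 3 to 4 sites were held by all lists left. No paired analysis was possible because only Hoxa11 has replicates. The alternatives on sites held by all lists, other than merging, on sites of both replicates and the whole-list shares at equal length were added after the data were seen. Depth is unknown, and with 7 Hoxa11 sites and 18 E11.0 peaks only large differences in share could be seen.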
